A study of Rattus norvegicus with 27 samples.

Results

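Gene expression in the prefrontal cortex was compared between rats made diabetic with streptozotocin and untreated control rats, on 6 of the 27 one-colour microarrays of the series. The arrays were chosen by their labels: 3 pools of prefrontal cortex from streptozotocin-treated Wistar males and 3 pools from Wistar control males. The treated rats received 65 mg/kg streptozotocin into the tail vein at 6 weeks of age, were kept only if their plasma glucose exceeded the study's limit for diabetes, and were killed at 10 weeks of age, 4 weeks after the injection. Controls were 10-week-old males of the same strain, and no injection of the citrate buffer is described for them. The average blood sugar was 26.34 mmol/L in the streptozotocin group and 7.64 mmol/L in the control group. Each array carried RNA of 3 pooled animals and each group held 9 animals, so that the spread within a group is that between pools and not between rats. The remaining arrays held hippocampus and striatum of the same animals and all 3 regions of Goto-Kakizaki rats, a strain with spontaneous diabetes.

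Streptozotocin enters the beta cells of the pancreas, which make insulin, and destroys them, so that the animals lose insulin and their blood glucose rises. The cortex of such animals is used as a model of how lasting lack of insulin and high glucose act on neurons, glia and vessels. The prefrontal cortex itself holds layered excitatory projection neurons, inhibitory interneurons, astrocytes, microglia, vessels and myelinated fibres, and it lies close to the anterior striatum, whose main cells are the medium spiny neurons.

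Values are given as relative signal, that is the processed spot intensity divided by the 75th percentile of its array, so that a relative signal of 1 equals that percentile. Differences are log2 changes of streptozotocin over control with their standard error (SE) and the adjusted p of limma, and a probe was called when the adjusted p was under 0.05 and the change at least 2-fold. Of the 41012 probes, 30594 passed the filter, being detected well above background by at least 2 of the 3 arrays of either group, and were tested. Probes well above background made up between 69.7% and 75.3% of each streptozotocin array and between 72.0% and 74.3% of each control array. The array with a given pool number lay on the same slide in both groups (pool 1 on slide 7, pool 2 on slide 5 and pool 3 on slide 6), and same-numbered arrays deviated from their group means together (correlations of 0.519, 0.446 and 0.698). Arrays with unequal numbers correlated between -0.553 and 0.336. The labelled region was checked with marker genes. All 15 striatal medium spiny neuron genes with complete values were lower in the prefrontal cortex than in the striatum without overlap, in streptozotocin and in control arrays alike. Of 19 genes of cortical projection neuron layers, 11 were higher and 6 lower in the prefrontal cortex than in the striatum without overlap in the streptozotocin arrays, and 8 were higher and 5 lower in the control arrays. Against the hippocampus, 10 were higher and 7 lower in streptozotocin arrays, and 8 and 6 in control arrays. The summed signal of these 19 genes was 190, 207 and 212 in control prefrontal pools, against 292, 337 and 272 in control striatum. Their median log2 signal went the other way, at 0.59, 1.14 and 1.095 against -0.25, 0.22 and -0.62. This list did not settle the label, and the share of all genes differing between regions was not counted.

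In this comparison 301 probes were called, 0.984% of those tested, with 99 higher in streptozotocin (0.324%) and 202 lower (0.66%). The probe for S100b rose more than any other named gene, Ucp3, Cdc25a, Rspo2, Grm2 and Chrna5 rose as well, and Trim16 and Ascl3 fell. Enpp6 and Mbp of the myelin list and Rgs9, Adora2a and Gpr6 of the striatal list fell, the striatal genes being high in 2 of the 3 control pools. A gene symbol was attached to 96 of the called probes (38 higher and 58 lower, from 93 genes), a share of 31.9% against 54.5% among all probes tested. The values of the 2 groups did not overlap for 297 of the 301. Over all genes, 15.9% were higher and 11.9% lower without overlap. Since calls were selected by their change in these same arrays, this count is no separate evidence for them. The count depended on the fit: with the slide as a fixed replicate block it was 283, with the 3 same-slide pairs of the 6 arrays alone 9, with the spread of the 2 groups alone 53, and with the methods' t-test 0 after adjustment (smallest adjusted p = 0.0788, with 4183 probes at an unadjusted p under 0.05 against 4728 in limma). Background correction by normexp left 44 calls, 28 higher and 16 lower. Of the 28 genes with the largest changes described below, S100b, Vezf1, Marf1, Rnf227, Mapt, Ftcd, Ccl6, Grm2 and Trim16 were called with normexp. S100b, Trim16, Marf1, Rspo2 and Zscan25 were called in the fit of same-slide pairs, and 27 of the 28 with the slide as a fixed block.

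**Figure D1:**
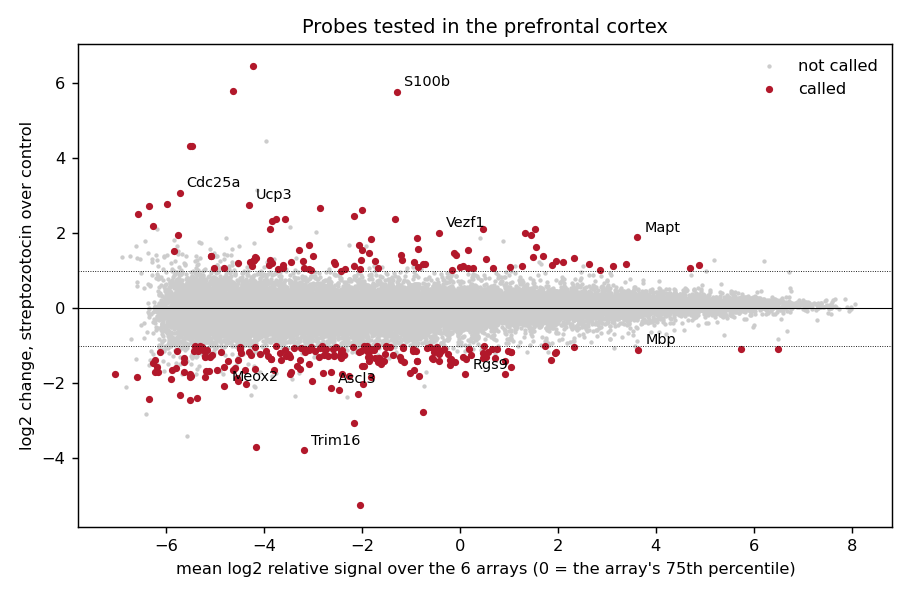
Each point is 1 of the 30594 probes tested, with its mean log2 relative signal over the 6 arrays on the horizontal axis and the log2 change of streptozotocin over control on the vertical axis. The 301 called probes are in red, dotted lines mark a 2-fold change, and the fitted changes of the called probes reach 6.46 upwards and -5.24 downwards.

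S100b encodes a calcium-binding protein that astrocytes make and release. Its probe had relative signals of 2.92, 2.78 and 3.46 in the streptozotocin pools, against 0.0461, 0.0470 and 0.0790 in the control pools. All 6 arrays were well above background for it and the groups lay far apart, with a log2 change of 5.78 (SE 0.20, adjusted p = 1.21e-13, 3 pools each). The within-slide differences were 5.98, 5.89 and 5.46 for pools 1, 2 and 3. It is the only probe for this gene that was tested. No other astrocyte gene of the 18 listed and tested passed the adjusted p: Gfap, the intermediate filament of astrocytes, had a log2 change of -0.50 (adjusted p = 0.29) and Aqp4, their water channel, 0.24 (adjusted p = 0.80), and the median of the list was 0.02 against 0.00 for all 12809 genes. Since a change in the cells of a type and a change in RNA per cell cannot be told apart in bulk tissue, these values describe the tissue as a whole.

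Several of the changes rest on a single probe, so the probes of the named gene that rose most and of the 2 that fell most are shown as the array design gives them, 5′ to 3′. Both probes of Klf9 and Stx7 are shown because 1 was called and the other was not, and for Mapt the called one. Probes are 60 bases long, and some are given by their first 30 bases.
S100b (first 30 bases): acagcgaatcgcggtttgttaccaagtacg
Trim16: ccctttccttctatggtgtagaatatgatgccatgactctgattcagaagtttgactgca
Ascl3: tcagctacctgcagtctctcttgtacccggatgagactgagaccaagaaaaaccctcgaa
Klf9, called probe: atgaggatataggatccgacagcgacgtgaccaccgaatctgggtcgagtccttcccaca
Klf9, other probe (first 30 bases): ccgaatttacactaaacaagacagaccttc
Stx7, called probe: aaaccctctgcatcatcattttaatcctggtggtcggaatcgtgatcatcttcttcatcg
Stx7, other probe (first 30 bases): aagcgtctgaaaaacccataccaatgtctg
Mapt, called probe (first 30 bases): taggtctgtggctttatgagccttcaaact

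Ucp3, Cdc25a and Ftcd were among the 14 largest increases, and with normexp Ftcd alone of them was called (adjusted p = 0.358 for Ucp3 and 0.548 for Cdc25a). Ucp3, a carrier of the inner mitochondrial membrane best known from muscle, had relative signals of 0.120, 0.179 and 0.105 in streptozotocin pools, against 0.0199, 0.0139 and 0.0263 in control pools (log2 change 2.76, SE 0.32, adjusted p = 3.82e-05). Groups without overlap were a condition for being picked, and 2 of the 3 control arrays were above background. Cdc25a, a phosphatase that activates cyclin-dependent kinases, reached 0.0602, 0.0427 and 0.0644 in streptozotocin, against 0.00396, 0.0162 and 0.00428 in controls, none of them well above background. Its fitted log2 change was 3.08 (adjusted p = 0.000442), and the signal floor allows the statement that it was at least 2.96-fold higher. Ftcd, an enzyme that links histidine breakdown to the folate pool, had 1.03, 0.993 and 1.08 in streptozotocin, against 0.279, 0.305 and 0.271 in controls (log2 change 1.86, SE 0.14, adjusted p = 4.71e-08).

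Grm2, Chrna5, Ccl6 and Rspo2 were also among the 14 largest increases. Grm2 encodes an inhibitory metabotropic glutamate receptor found mostly on presynaptic endings. It had relative signals of 5.21, 4.54 and 5.76 in streptozotocin pools, against 1.86, 1.69 and 1.47 in control pools (log2 change 1.63, SE 0.18, adjusted p = 1.87e-05). Chrna5, an accessory subunit of nicotinic acetylcholine receptors, measured 0.439, 0.454 and 0.399 in streptozotocin, against 0.130, 0.149 and 0.125 in controls (log2 change 1.68, SE 0.17, adjusted p = 1.01e-05). Ccl6, a chemokine of rodents, was at 0.546, 0.482 and 0.592 in streptozotocin, against 0.152, 0.162 and 0.138 in controls (log2 change 1.84, SE 0.20, adjusted p = 2.49e-05). Rspo2, a secreted enhancer of Wnt signalling, was at 0.568, 0.516 and 0.484 in streptozotocin, against 0.105, 0.0847 and 0.0958 in controls (log2 change 2.46, SE 0.44, adjusted p = 0.00445). These genes were picked among called probes without overlap, so the gap between the groups follows from that choice. The pools of a group lay close together.

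Vezf1, Chst11, Zscan25 and Rnf227 rose as well. Vezf1, a zinc finger transcription factor of the vessel wall, had relative signals of 1.52, 1.28 and 1.69 in streptozotocin pools, against 0.348, 0.403 and 0.358 in control pools (log2 change 2.02, SE 0.15, adjusted p = 3.95e-08). Chst11, which adds sulphate to chondroitin chains of the matrix, had 0.168, 0.157 and 0.148 in streptozotocin, against 0.0273, 0.0352 and 0.0318 in controls (log2 change 2.33, SE 0.37, adjusted p = 0.00133). Zscan25, a zinc finger protein, and Rnf227, a RING finger protein, rose by 2.38 (SE 0.49, adjusted p = 0.00996) and 1.95 (SE 0.40, adjusted p = 0.0106) on the log2 scale. Zscan25 lost the call without streptozotocin pool 3, and Rnf227 lost it without control pool 1.

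Mapt, which encodes the microtubule protein tau, and Marf1, a regulator of RNA stability, differed between their probes. The called probe of Mapt had relative signals of 21.8, 20.9 and 29.3 in streptozotocin pools, against 5.53, 5.76 and 8.02 in control pools (log2 change 1.90, SE 0.45, adjusted p = 0.0263), and the call was lost without any single pool other than streptozotocin pool 2. The second Mapt probe lay between 9.79 and 11.9 in streptozotocin and between 8.94 and 9.18 in controls (log2 change 0.24, adjusted p = 0.373). Marf1 behaved likewise, with a log2 change of 2.00 (SE 0.24, adjusted p = 8.03e-05) for one probe, 0.53 (adjusted p = 0.0536) for the second and -0.10 (adjusted p = 0.834) for the third. Klf9, a transcription factor induced by glucocorticoids and thyroid hormone, and Stx7, a syntaxin of endosomes, were looked at after their values were seen: their called probes changed by 1.24 and 1.35 on the log2 scale (adjusted p = 0.000167 and 0.00898), their other probes by -0.12 and 0.24 (adjusted p = 0.825 and 0.638). Among the called genes, 21 had another tested probe, and 3 of them, Adora2a, Ceacam4 and Mbp, had 2 called probes. The 19 uncalled probes of the other 18 genes had the sign of the called probe in 17 cases, with a median change of 0.25 in size on the log2 scale.

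**Figure D2:**
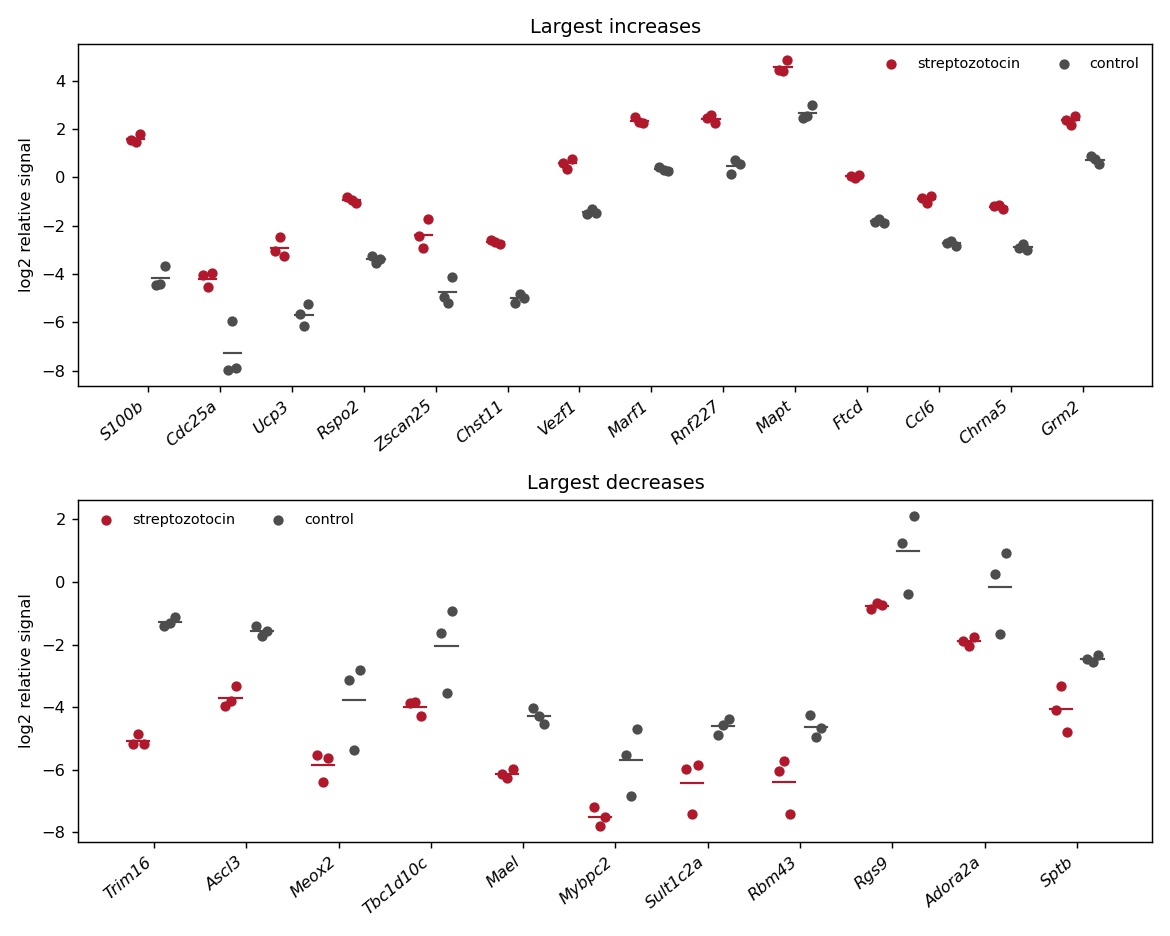
Points are the log2 relative signals of single pools (3 streptozotocin in red, 3 control in grey to their right) and bars their means, for the 14 genes with the largest increases (upper panel) and 11 of the 14 with the largest decreases (lower panel) among called probes without overlap. S100b has the widest gap; in Meox2, Tbc1d10c, Mybpc2, Rgs9 and Adora2a control pool 2, the middle grey point, lies near the streptozotocin pools while control pools 1 and 3 are high.

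Trim16 and Ascl3 led the decreases and were low in all 3 streptozotocin pools. Trim16, an tripartite motif protein that acts as a ubiquitin ligase, had relative signals of 0.0276, 0.0346 and 0.0274 in streptozotocin, against 0.373, 0.402 and 0.460 in controls (log2 change -3.79, SE 0.24, adjusted p = 4.17e-09). Ascl3, a basic helix-loop-helix transcription factor known from the salivary gland, had 0.0636, 0.0709 and 0.0992 in streptozotocin, against 0.374, 0.299 and 0.338 in controls (log2 change -2.13, SE 0.20, adjusted p = 2.70e-06). Sptb, a spectrin of the red cell membrane, had 0.0592, 0.0988 and 0.0360 in streptozotocin, against 0.182, 0.168 and 0.199 in controls (log2 change -1.62, SE 0.34, adjusted p = 0.0128). In these genes all 6 arrays were above background, and groups without overlap were a condition for being picked. With normexp the log2 change was -1.86 for Trim16 (adjusted p = 0.0428), -1.01 for Ascl3 (adjusted p = 0.358) and -0.64 for Sptb (adjusted p = 0.639). Sptb also lost the call without control pool 3 and without streptozotocin pool 1 or 3.

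A second set of decreases was dim. Mael, which protects germ cells from transposons, Sult1c2a, a sulphotransferase, and Rbm43, an RNA-binding protein, were well above background on 0 of the 3 streptozotocin arrays and on all 3 control arrays. They were at least 2.52-fold, 2.00-fold and 1.98-fold lower in streptozotocin, each against the signal floor of the arrays, with adjusted p-values of 0.0407, 0.0103 and 0.0035. With normexp background correction their log2 changes turned positive, between 0.16 and 0.33, and none was called. That correction moved the median change of all probes to 0.21, so these values lay about that median. Mybpc2, a myosin-binding protein of fast muscle, was also below background on every streptozotocin array and turned to 0.44 with that correction. Among all 202 probes called lower, 32 were well above background on no streptozotocin array and 143 on all 3, and among the 99 called higher, 12 were on no control array and 82 on all 3.

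Another set of decreases followed 2 control pools. Rgs9, a regulator of G protein signalling enriched in the striatum, had relative signals of 0.544, 0.632 and 0.594 in streptozotocin pools, against 2.36, 0.770 and 4.34 in control pools (log2 change -1.76, SE 0.38, adjusted p = 0.0151). Adora2a, an adenosine receptor of striatal projection neurons, had 0.272, 0.241 and 0.298 in streptozotocin, against 1.2, 0.316 and 1.89 in controls (log2 change -1.73, SE 0.37, adjusted p = 0.0144), and its second probe changed by -1.70 (adjusted p = 0.0266). Control pools 1 and 3 were high and control pool 2 was close to the streptozotocin pools in both genes. The same held for Gpr6, an orphan receptor of striatal neurons, with 0.162, 0.130 and 0.162 in streptozotocin, against 0.878, 0.145 and 1.2 in controls (log2 change -1.83, SE 0.47, adjusted p = 0.0416, and 0.0561 with the slide as a fixed block), where the groups overlapped. It held too for Meox2, a homeobox gene (0.0217, 0.0119 and 0.0204 in streptozotocin, against 0.115, 0.0242 and 0.142 in controls), and Tbc1d10c, an inhibitor of calcineurin (0.0691, 0.0696 and 0.0518 in streptozotocin, against 0.321, 0.0851 and 0.529 in controls). Their log2 changes were -2.08 and -1.95 (adjusted p = 0.0115 and 0.00851). Rgs9, Adora2a, Meox2 and Tbc1d10c all lost the call without control pool 1 and without control pool 3, and those other than Meox2 also without streptozotocin pool 1 or 3 or both. Each had signals in the control striatum above every prefrontal array: Tbc1d10c, for example, measured 5.29, 7.36 and 5.01 there.

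The list of striatal medium spiny neuron genes was read pool by pool as well. Of 17 tested, 3 were called lower, all named above (Rgs9, Adora2a and Gpr6), where 0.66% of all probes were, 4 were lower without overlap (11.9% of all genes) and 1 was higher (15.9% of all genes), and the median log2 change was -0.50. Over the 16 genes with complete values the summed relative signal was 75.6, 74.7 and 84.2 in streptozotocin pools and 88.4, 74.4 and 108 in control pools. Isl1, a transcription factor of striatal precursors, had 0.00353, 0.00459 and 0.00534 in streptozotocin, against 0.0609, 0.00379 and 0.133 in controls (adjusted p = 0.0566). Relative to the mean of the 6 arrays the median gene of the list lay at -0.29, -0.32 and -0.12 in streptozotocin pools and at 0.52, -0.49 and 0.92 in control pools on the log2 scale. Without control pools 1 and 3, which was tried after the data were seen and assumes that the single control pool left varies like the other groups, 51 probes were called (30 higher and 21 lower) and 0 genes of the striatal list passed the adjusted p. Of the 28 genes with the largest changes, S100b, Ucp3, Vezf1, Marf1, Ftcd, Ccl6, Chrna5, Grm2, Trim16 and Ascl3 were still called there. Without control pool 2 alone, 262 were called. The part of this striatal signal in other decreases was not tested.

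**Figure D3:**
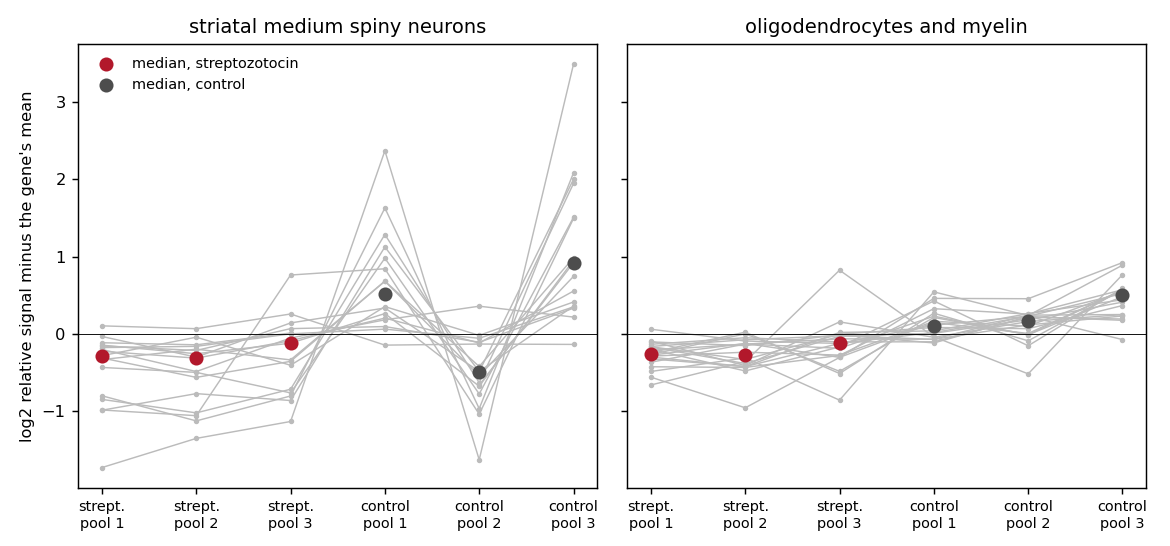
Grey lines are single genes over the 6 pools (streptozotocin 1 to 3, then control 1 to 3), as log2 relative signal minus the gene's mean, for striatal medium spiny neuron genes (left, 17 genes) and oligodendrocyte and myelin genes (right, 20 genes), with list medians as large points. Control pools 1 and 3 rise in the striatal list while control pool 2 does not, and in the myelin list the 3 control medians lie above the 3 streptozotocin medians.

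The next list held genes of oligodendrocytes, the cells that wrap axons in myelin. Of 20 tested, 2 were called lower (Enpp6 and Mbp), 11 were lower in all 3 streptozotocin pools than in any control pool, where 11.9% of all genes were, and 0 were higher, with a median log2 change of -0.47. Enpp6, a phosphodiesterase of newly forming oligodendrocytes, had relative signals of 0.501, 0.380 and 0.598 in streptozotocin, against 1.02, 1.01 and 1.40 in controls (log2 change -1.22, SE 0.20, adjusted p = 0.0022). Mbp, the myelin basic protein, had 8.88, 10.0 and 6.87 in streptozotocin, against 18.2, 14.7 and 23.1 in controls (log2 change -1.11, SE 0.25, adjusted p = 0.0201), and its second probe changed by -1.02 (adjusted p = 0.0309). Mog, Mobp and Bcas1, further myelin genes, had log2 changes of -0.49, -0.57 and -0.57 (adjusted p = 0.148, 0.195 and 0.0867). The summed signal of the list was 156, 158 and 169 in streptozotocin pools and 190, 212 and 240 in control pools, with control pool 3 the highest. Whether the striatal signal of control pools 1 and 3 has a part in these decreases was not tested. The call of Enpp6 held without each single pool, whereas Mbp was no longer called without control pool 1 or 3 or streptozotocin pool 1 or 3 (adjusted p between 0.0628 and 0.134) or with normexp (0.172). Without control pools 1 and 3 the log2 changes were -1.06 for Enpp6 (adjusted p = 0.192) and -0.79 for Mbp (adjusted p = 0.635).

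The lists of microglia, endothelium, meninges and choroid plexus each had 1 gene past the adjusted p or none. Over all genes, 11.9% were lower without overlap. Of 17 microglia genes, Tmem119, a surface protein of resident microglia, was called lower (log2 change -1.25, SE 0.29, adjusted p = 0.0237; not called without pool 1 or 3 of either group, and -0.18 with an adjusted p of 0.84 with normexp), and 5 were lower without overlap, with a list median of -0.10. Among 20 genes of endothelium and pericytes, Tek, the angiopoietin receptor, passed the adjusted p at a log2 change of -0.60 (adjusted p = 0.0498, but 0.0589 with the slide as a fixed block, and a change of 0.02 with normexp) and 6 were lower without overlap, with Vtn at -0.38 (adjusted p = 0.267) and a list median of -0.10. For 14 genes of meninges and fibroblasts the median was -0.40, 6 were lower without overlap and 0 passed: Col1a1, a collagen chain, had 2.74, 2.66 and 2.70 in streptozotocin, against 3.49, 3.76 and 10.1 in controls (adjusted p = 0.166), and Bmp6 changed by -0.57 (adjusted p = 0.181). Their summed signal was 70.3, 68.0 and 82.4 in streptozotocin pools and 71.4, 90.3 and 121 in control pools, so control pool 3 stood out in this list too. Of 10 choroid plexus genes 0 passed, and Ttr, the thyroid hormone carrier of the plexus, had 0.215, 0.234 and 0.142 in streptozotocin, against 0.0218, 0.0423 and 0.0840 in controls (log2 change 2.18, SE 1.23, adjusted p = 0.43), while Kcne2 changed by -1.33 (adjusted p = 0.386). The median of the plexus list was -0.20 and that of 8 blood genes -0.42, and with normexp both turned positive (0.46 and 0.28, against 0.12 for all genes). The summed signal of the plexus list was 3.85, 3.52 and 4.33 in streptozotocin and 4.44, 4.63 and 4.82 in controls.

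Alb and Hbb of the blood list moved in opposite directions. Alb, which encodes serum albumin and is made mainly by the liver, had relative signals of 5.38, 4.30 and 6.32 in streptozotocin pools, against 1.73, 2.44 and 1.88 in control pools (log2 change 1.40, SE 0.20, adjusted p = 0.000391). Hbb, a beta globin, had 0.584, 0.537 and 0.531 in streptozotocin, against 0.903, 1.25 and 1.40 in controls (log2 change -1.08, SE 0.27, adjusted p = 0.0361). The groups did not overlap in either gene, but the call of Hbb was lost on leaving out 1 pool in 5 of 6 cases and that of Alb in none, and with normexp Alb was called and Hbb was not (adjusted p = 0.211). Of the other 6 blood genes tested 0 passed the adjusted p, among them Hbb-b1, another beta globin, at -0.49 (adjusted p = 0.19). The summed signal of the list was 59.1, 57.6 and 69.0 in streptozotocin pools and 59.3, 92.3 and 97.1 in control pools.

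Of the potassium channel, glutamatergic and GABAergic lists, Kcnq3 and Grm2 were the genes that passed the adjusted p. Against 15.9% of all genes, 9 of 25 voltage-gated potassium channel genes, 7 of 23 genes of glutamatergic transmission and 6 of 21 of GABAergic transmission were higher in all 3 streptozotocin pools, with medians of 0.17, 0.14 and 0.10. Kcnq3, a subunit of the M-current channel that restrains firing, was the one channel gene called, at 2.93, 2.76 and 3.34 in streptozotocin, against 1.48, 1.26 and 1.45 in controls (log2 change 1.11, SE 0.22, adjusted p = 0.00864), and lost the call without streptozotocin pool 3 and with normexp (adjusted p = 0.103). Kcnd2 and Kcnq5, further potassium channels, had log2 changes of 0.50 and 0.60 (adjusted p = 0.0516 and 0.069). Grm2 was the one glutamatergic gene that passed, and of the GABAergic list 0 did. Of 26 monoamine and acetylcholine receptor genes 0 passed, with Chrm3 at 0.34 (adjusted p = 0.111) and Drd1, the dopamine receptor that the striatal list also holds, at -1.14 (adjusted p = 0.103).

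Cortical neuropeptides and the galanin system gave 0 genes past the adjusted p of 23, with 7 higher without overlap and a median of 0.08. For this and the next 2 lists, the shares without overlap over all genes were 15.9% higher and 11.9% lower. Cartpt and Pdyn, peptide precursors that striatal neurons also express, had log2 changes of -2.06 (SE 0.60, adjusted p = 0.0698) and -0.82 (SE 0.26, adjusted p = 0.0896), and again control pools 1 and 3 were the high ones: Cartpt measured 0.332, 0.138 and 0.546 in streptozotocin, against 1.91, 0.324 and 2.97 in controls. Gal, the galanin precursor, changed by -0.02 (SE 0.35). Of 20 genes of cortical projection neuron layers 6 were higher without overlap and 2 lower, the median was 0.11 and 0 passed. Etv1, a marker of layer 5 neurons, had 20.2, 20.7 and 23.4 in streptozotocin, against 12.7, 16.7 and 10.4 in controls (log2 change 0.72, SE 0.19, adjusted p = 0.054), and Otof changed by -0.38 (adjusted p = 0.23). Immediate early genes, which neurons switch on with activity, had 6 of 22 higher without overlap and a median of 0.05, and 0 passed: Ier2 had 8.21, 8.57 and 8.43 in streptozotocin, against 3.90, 2.87 and 5.12 in controls (log2 change 1.12, SE 0.43, adjusted p = 0.176), Bdnf changed by 0.49 (adjusted p = 0.215) and Fos by 0.01 (adjusted p = 0.99).

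The insulin, glucose and lipid genes that the disease model addresses most directly showed few changes. As background, 0.952% of the 12809 genes passed the adjusted p as higher and 1.12% as lower. Of 23 genes of insulin and IGF signalling, Igfbp5, a binding protein of insulin-like growth factors, fell to 0.279, 0.279 and 0.300 in streptozotocin pools, against 0.434, 0.474 and 0.488 in control pools (log2 change -0.70, SE 0.10, adjusted p = 0.000442). With normexp the change of Igfbp5 was -0.39 (adjusted p = 0.609). Only 1 other gene of the list passed, as higher. Insr, the insulin receptor, had a log2 change of 0.41 (adjusted p = 0.16) and the list median was -0.01. Of 23 genes of glucose transport and glycolysis 0 passed and the median was 0.06, with Pdk1, a kinase that inhibits pyruvate dehydrogenase, at -0.44 (adjusted p = 0.099), Slc2a3, the neuronal glucose transporter, at -0.70 (SE 0.27, adjusted p = 0.192) and Slc2a1, the transporter of the vessel wall, at 0.05 (adjusted p = 0.95).

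Among 26 genes of ketone body use and fatty acid oxidation, 2 passed as higher, Ucp3 being the one called, 0 passed as lower and the median was -0.06. Of 22 genes of cholesterol synthesis Lss, the lanosterol synthase, was the only one to pass, with 0.462, 0.509 and 0.442 in streptozotocin, against 0.263, 0.280 and 0.283 in controls (log2 change 0.77, SE 0.12, adjusted p = 0.00152, and 0.274 with normexp). Insig1, a sterol sensor of the same pathway, changed by 0.18 (adjusted p = 0.522), and the list median was 0.03.

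Hormone-responsive and stress genes were largely without calls. Of 17 glucocorticoid-induced genes 0 passed and the median was -0.05, with Arrdc2 at -0.41 (adjusted p = 0.336) and Cdkn1a at -0.43 (adjusted p = 0.407), and Klf9 stood in this list by its brighter probe, the uncalled one. Of 13 thyroid hormone genes 0 passed, 6 were lower without overlap (11.9% of all genes were) and the median was -0.12. Dio3, the enzyme that inactivates thyroid hormone, had 0.488, 0.463 and 0.572 in streptozotocin, against 0.894, 1.15 and 0.959 in controls (log2 change -0.98, SE 0.26, adjusted p = 0.0513), and Hr changed by -0.56 (adjusted p = 0.0945). Of 17 genes of protein folding stress, Hsp90aa1, a cytosolic chaperone, rose by 0.54 (SE 0.14, adjusted p = 0.0473, and 0.083 with the slide as a fixed block), Pdia4, a disulphide isomerase of the endoplasmic reticulum, fell by 0.62 on the log2 scale (SE 0.15, adjusted p = 0.0286), and the median was -0.02. Oxidative stress genes gave 0 of 19 past the adjusted p and a median of 0.06, with Sod2 at 0.35 (adjusted p = 0.186) and Gsr at -0.26 (adjusted p = 0.383). Of 18 clock genes, Bhlhe40, a repressor of the circadian loop, rose by 0.49 (SE 0.12, adjusted p = 0.0377), Npas2 changed by -0.53 (adjusted p = 0.0752) and the median was 0.01. With normexp Hsp90aa1, Pdia4 and Bhlhe40 did not pass (adjusted p between 0.453 and 0.639).

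Interferon and respiratory chain genes had the highest shares of members without overlap on the higher side. Over all genes, 15.9% were higher and 11.9% lower without overlap. In the interferon and antigen presentation list 11 of 23 genes were higher in all 3 streptozotocin pools than in any control pool and 0 were lower, with a median of 0.19, but 0 passed the adjusted p. Bst2, an interferon-induced restriction factor, had 1.47, 1.49 and 1.85 in streptozotocin, against 0.827, 0.882 and 1.07 in controls (log2 change 0.79, SE 0.22, adjusted p = 0.0609), and Isg15, a ubiquitin-like antiviral protein, had 1.05, 0.970 and 1.35 in streptozotocin, against 0.546, 0.621 and 0.732 in controls (log2 change 0.82, SE 0.30, adjusted p = 0.152). Of 31 subunits of the mitochondrial respiratory chain 12 were higher without overlap and 0 lower, the median was 0.16 and 0 passed, with Cox5a at 0.43 (SE 0.15, adjusted p = 0.134) and Uqcrc2 at 0.34 (adjusted p = 0.335). After normexp correction the median of the respiratory chain was 0.01 and that of the interferon list 0.26, against 0.12 for all genes, so that the respiratory chain was then below the other genes.

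**Figure D4:**
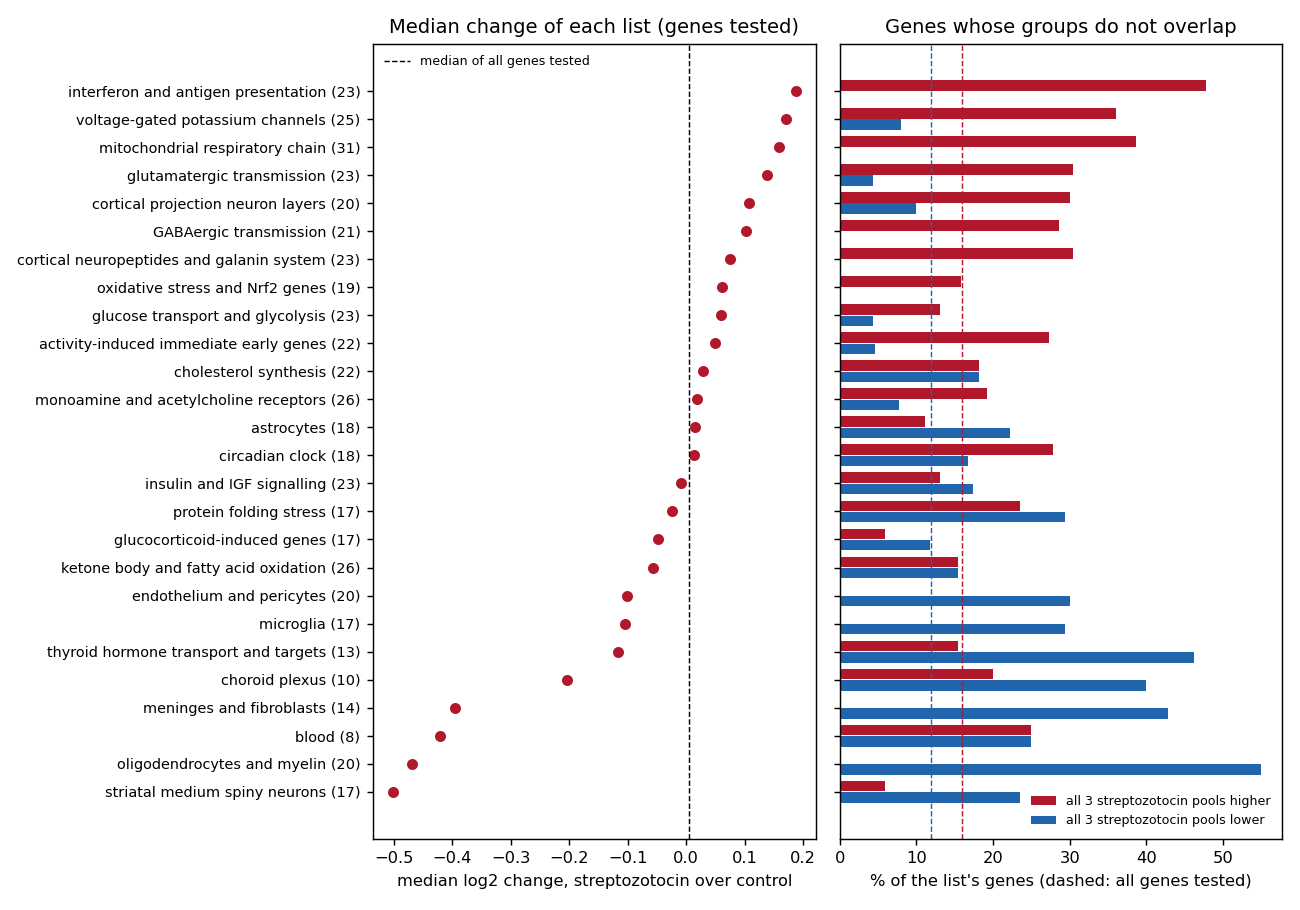
The left panel gives the median log2 change of streptozotocin over control of each of the 26 gene lists (number of genes tested in brackets), and the right panel the percentage of its genes that were higher (red) or lower (blue) in all 3 streptozotocin pools than in any control pool, with dashed lines for all genes tested (15.9% and 11.9%). Interferon genes and the respiratory chain lie at the upper end, and oligodendrocyte and striatal genes at the lower end.

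Hippocampus and striatum of the same animals were read for the same changes. In those regions streptozotocin and control arrays shared no slide, so that slide and group cannot be told apart there. There 194 of the probes tested were called for hippocampus (0.636%) and 266 for striatum (0.876%). S100b changed by 6.10 for hippocampus and 5.66 for striatum on the log2 scale, Trim16 of -3.40 and -4.15, Ascl3 of -2.53 and -2.40, Ucp3 of 3.18 and 2.90, Cdc25a of 3.12 and 3.67 and Vezf1 of 1.85 and 2.33, all of them called. Calls were made for 8 of the 14 largest increases in hippocampal and for 9 in striatal arrays, and of the 14 largest decreases 2 were called in each, out of 13 tested in the hippocampus and 12 in the striatum. The regions come from the same animals, so this is no independent repeat.

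No probe was called for a difference of the streptozotocin effect between the prefrontal cortex and the hippocampus in limma (0.0% of 31241 tested, smallest adjusted p = 0.13, 2147 at an unadjusted p under 0.05) or between the prefrontal cortex and the striatum (0.0% of 31485, smallest adjusted p = 0.191, 2663 at an unadjusted p under 0.05). With array weights 101 and 50 probes were called, and without prefrontal control pool 2 the counts were 20 and 13, all of them lower. Grm2 changed by 0.56 in the hippocampus and 0.83 in the striatum, and the differences of 1.06 and 0.79 from the prefrontal change had adjusted p-values of 0.224 and 0.481. Rspo2 changed by 1.40 in the hippocampus and 1.13 in the striatum (adjusted p of the differences 0.819 and 0.579). Meox2, which was lower in the prefrontal cortex, changed by 0.29 in the hippocampus and -0.51 in the striatum (adjusted p of the differences 0.261 and 0.533). No change can therefore be called particular to the prefrontal cortex.

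The Goto-Kakizaki pools of the prefrontal cortex, read against the same control pools, give further levels for these genes. S100b measured 0.0453, 0.0382 and 0.0498 in Goto-Kakizaki rats, at the control level, and Ucp3, Cdc25a, Chst11 and Chrna5 were near the control level as well. Trim16 had 0.0296, 0.0276 and 0.0539 and Ascl3 0.0631, 0.0645 and 0.0877 in Goto-Kakizaki rats, both at the level of the streptozotocin pools. Ftcd (1.18, 1.34 and 1.64) and Grm2 (5.51, 7.90 and 7.75) were at or above the streptozotocin level there. The control pools are shared by both comparisons, and no test was made between them.

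**Figure D5:**
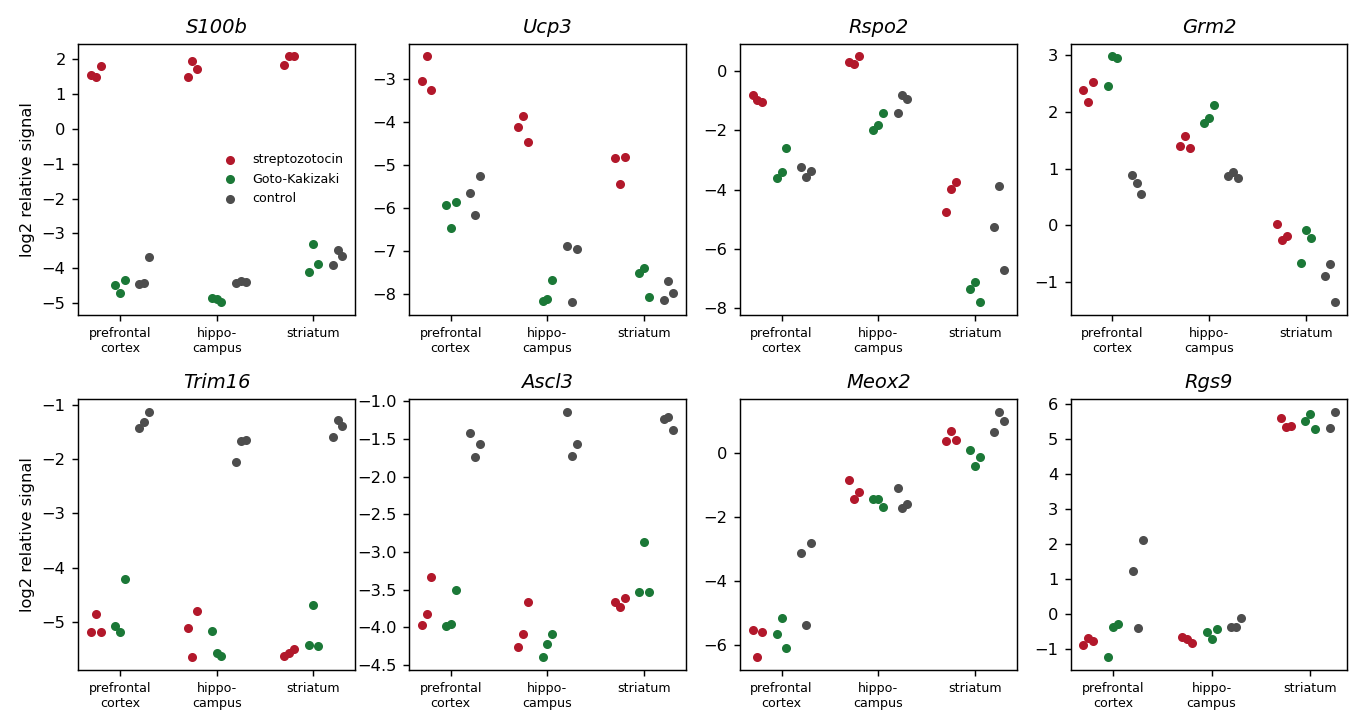
Each panel shows the log2 relative signal of 1 gene in single pools of streptozotocin (red), Goto-Kakizaki (green) and control rats (grey) in the prefrontal cortex, hippocampus and striatum. S100b and Ucp3 are high in streptozotocin pools of every region, Trim16 and Ascl3 are high in control pools alone, and Meox2 and Rgs9 are highest in the striatum and, within the prefrontal cortex, in control pools 1 and 3.

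Some called genes neighbour each other in the RefSeq gene order, which was looked at after the values were seen. Among the 6 tested genes from Ftcd to S100b along 1 chromosome, 3 were called and 4 passed the adjusted p: Ftcd at 1.86, Spatc1l at -1.29 (SE 0.24, adjusted p = 0.00605), Lss at 0.77 and S100b at 5.78. The ends of this run were set at called genes, which raises its count. Over all genes, 0.952% passed the adjusted p as higher and 1.12% as lower, and 0.984% of all probes were called. Mcm3ap and Ybey, between Lss and S100b, had log2 changes of -0.04 and 0.22 (adjusted p = 0.963 and 0.66), and the outer neighbours Col6a2 and Prmt2 had -0.13 and -0.40 (adjusted p = 0.841 and 0.359). Of the 93 called genes, 3 pairs lay directly side by side among the 12804 genes placed in this order. They were Ftcd with Spatc1l, Zfp286a (-1.02, with a second probe at -0.44) with Trim16 (-3.79), and Tulp2 (-1.39) with Nucb1 (-1.15, with a second probe at -0.24). Whether this is more than the number of called genes would give was not tested.

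Among probes without a gene symbol 205 were called, 61 higher and 144 lower. The 2 with the largest fitted increase and the 2 with the largest fitted decrease among these are named here by their probe numbers, with the first 30 of their 60 bases, since no gene in the annotation used here could be matched to them.
A_44_P901064: tgaattagagggtgacgttttgtgattaga
A_44_P845078: aggagtaaacatccaatatccacgagataa
A_44_P178671: agccacacgccgaatggatacatttattgt
A_44_P936305: tgaagtactagacatcatctatatcccatg
A_44_P901064 had relative signals of 0.479, 0.495 and 0.537 in streptozotocin pools, against 0.0102, 0.00348 and 0.00529 in control pools, where no array was well above background, so that it was at least 27.1-fold higher (adjusted p = 1.02e-05). A_44_P845078 was at least 16.1-fold higher (adjusted p = 1.27e-12), also with no control array above background. A_44_P178671 had 0.0498, 0.0326 and 0.0387 in streptozotocin, against 1.01, 1.87 and 1.78 in controls (log2 change -5.24, SE 0.25, adjusted p = 3.39e-11). A_44_P936305 was above background in no streptozotocin pool and was at least 9.23-fold lower (adjusted p = 1.73e-06). Only called probes whose groups did not overlap could be picked here, so the gap between the groups follows from that choice. A_44_P901064, A_44_P845078 and A_44_P936305 passed the background filter through their bright group alone.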

How the data were processed

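Pooled RNA of the prefrontal cortex was labelled with Cy3, hybridised to Agilent rat arrays and extracted by the authors with Feature Extraction 9.1, per the labels. The deposited processed signal is a linear intensity after background subtraction and detrending, with surrogate values for dim spots and no scaling between arrays, and the deposited value table holds the same intensities. For the limma fits, probes that are not controls were averaged per probe, spots marked as outliers were left out, and log2 values of the deposited intensity were taken relative to the 75th percentile of each array. A single model with 9 group means over all 27 arrays (18 residual degrees of freedom, empirical Bayes, limma 3.58.1 in R 4.3.3 with data.table, version 1.17.8) gave the changes, with Benjamini-Hochberg adjustment over the probes tested. Files and figures were handled with Python 3.11.15, numpy 2.4.6, pandas 2.3.3 and matplotlib 3.10.9. The step was tested on simulated data with independent errors for each array. These data held no slide or pool structure, so the test cannot speak to such structure in the real arrays. The number of arrays limits the precision.

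Gene names follow the array annotation, updated with the GRCr8 RefSeq table (20042 of 41012 probes matched); sequences are those of the array design. Named genes were the 14 largest increases and decreases among called probes with a symbol and no overlap, up to 4 called members of each list or the 2 with the smallest p, and other probes of genes named for their change. Klf9, Stx7, the neighbouring genes, the probes without a symbol and further list members without a call (such as Gfap, Fos, Insr and Gal) were chosen after their values were seen. In lists the brightest probe stands for a gene. "At least" folds compare the bright group's mean with the mean of each array's floor, its dimmest probe well above background, or the dim probe's own signal where that is higher. The comparison, lists and rules were chosen with earlier results of these data known, so they are no independent evidence. Equal replicate numbers share a slide and deviate together (correlations of 0.519, 0.446 and 0.698), so they pair the arrays. Alternatives were other scalings and background correction, other filters, the value table, outlier spots kept, the spread of fewer arrays, slide as a block or as pairs, single slides, array weights, the methods' t-test, no fold threshold and leaving out pools. Leaving out control pools 1 and 3 was chosen after seeing the data. Some genes and 1 probe sequence are not reported here, though their probes stay in every fit and count.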

Additional observations from a re-analysis of the deposited data

How the results depend on the processing

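The 301 calls became 44 with normexp background correction, which moved the median change of all probes to 0.21 on the log2 scale, 167 with the spread of the prefrontal cortex arrays alone, 53 with the 2 groups alone, 9 with the replicate block of same-slide pairs, 80 and 93 on leaving out slide 6 or 7, 20, 29 and 15 within slides 5, 6 and 7, 508 with array weights, 51 without control pools 1 and 3, 826 with no fold threshold and 0 with the adjusted t-test. Leaving out 1 pool gave 150 to 432 calls: 150 without streptozotocin pool 3, 165 without control pool 3, 170 without control pool 1 and 178 without streptozotocin pool 1. With the slide as a fixed replicate block 283 were called. The other alternatives gave between 269 and 305. With the 50th percentile 118 of 271 calls were higher, against 99 of 301. Region differences numbered 0, with array weights 101 (hippocampus) and 50 (striatum), and 0 to 20 and 0 to 13 on leaving out 1 pool. With normexp 6 of the 28 genes with the largest changes reversed their sign, among them Mael (0.16), Mybpc2 (0.44), Sult1c2a (0.33) and Rbm43 (0.23), and of the list genes Tek (0.02), Arrdc2 (0.40), Hr (0.33), Gsr (0.095), Otof (0.24), Kcne2 (0.24) and Drd1 (0.037) turned positive. Without control pools 1 and 3 Gpr6 (0.057), Drd1 (0.21) and Gsr (0.022) turned positive, and within slide 5 Drd1 (0.28), Gsr (0.17), Slc2a3 (0.07) and Arrdc2 (0.0011). S100b, Marf1 and Trim16 were called under every alternative but the adjusted t-test and, for Marf1, single slides; 9 of the 28 genes with the largest changes were called with normexp. The cause was not tested. Signal over background limits the dim genes.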
